A study of Mus musculus with 19 samples.

Results

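The 5 genes *Samd11*, *Csf2ra*, *Pisd-ps1*, *Pisd-ps2* and *Rps4l*, were followed across neural tissue of mice with 1 mutant copy of *Wiz*. They were picked from earlier results of these same counts, as genes at chromosome ends with lower expression in heterozygotes, and were matched by symbol to their Ensembl identifiers, giving 5 of the 41388 genes in the count tables. *Wiz* encodes a zinc finger protein that binds the histone methyltransferases G9a and GLP. The MommeD30 allele is a single-base deletion made by ENU, which shifts the reading frame and acts as a null, and it is kept on FVB/NJ mice that all carry a multicopy GFP transgene driven by alpha-globin sequences. RNA came from the entire brain of male embryos at E13.5 (3 Wiz+/+ and 3 WizMommeD30/+) and of females at the same stage (2 and 2), and from cerebella of adult males aged 56 days (3 and 3), all of that strain and called wildtype and heterozygous here. The embryos came from crosses between heterozygotes, and no group received a treatment.

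Chromosome ends are places where genes can be sensitive to the dose of chromatin proteins, because repeats and heterochromatin lie close by. *Samd11* encodes a SAM-domain protein that works with Polycomb complexes and is best known from photoreceptors. *Csf2ra* encodes the alpha chain of the receptor for GM-CSF, a cytokine that acts on macrophages, microglia and granulocytes. *Pisd-ps1* and *Pisd-ps2* are transcribed copies of *Pisd*, whose enzyme makes phosphatidylethanolamine from phosphatidylserine in mitochondria. *Rps4l* is a retrocopy, a gene made by reverse transcription of a messenger RNA, of the X-linked gene for ribosomal protein S4, *Rps4x*.

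The label "near chromosome ends" covered 3 different situations in the GRCm38 assembly. *Samd11* (chr4:156246966-156255657, minus strand, protein coding) ended 102 kb before the last assembled base of its chromosome, and *Csf2ra* (chr19:61223957-61228429, minus strand, protein coding) ended 103 kb before its own. These are the distal, telomeric ends. *Pisd-ps1* (chr11:3125904-3131004, plus strand) and *Pisd-ps2* (chr17:3076578-3084183, minus strand), both annotated as transcribed unprocessed pseudogenes, began 25.9 kb and 76.6 kb after the first assembled base, on the side of the centromere. No gene that passed the filter on low counts in male brain lay between any of these 4 genes and its chromosome end. *Rps4l* (chr6:148354656-148355598, plus strand, a transcribed processed pseudogene) was different, because it lay 1.23 Mb from the distal end with 11 tested genes beyond it, inside an intron of *Tmtc1* on the opposite strand. *Pisd-ps2* is on the same chromosome as *Wiz*, which is 29.4 Mb from that end.

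Promoter sequences from RefSeq (GRCm38.p6, 250 bases before and 50 after the start) were found for 2 of the 5 genes, *Samd11* and *Csf2ra*, and are shown because these 2 genes were lower together in heterozygotes of every tissue. None was found for *Pisd-ps1*, *Pisd-ps2* and *Rps4l*. In the *Samd11* promoter (chr4:156255293-156255592, minus strand) the capitals mark TAATCC, the core recognised by the photoreceptor factor Crx, on either strand. In that of *Csf2ra* (chr19:61228369-61228668, minus strand) they mark the cAMP response element TGACGTCA. Both motifs were chosen after the sequences had been seen.
Samd11: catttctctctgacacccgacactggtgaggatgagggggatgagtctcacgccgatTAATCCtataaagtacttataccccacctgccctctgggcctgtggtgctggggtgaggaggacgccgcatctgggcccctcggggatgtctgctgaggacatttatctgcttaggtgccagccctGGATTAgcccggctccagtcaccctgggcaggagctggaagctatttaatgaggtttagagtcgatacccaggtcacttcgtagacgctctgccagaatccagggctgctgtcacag
Csf2ra: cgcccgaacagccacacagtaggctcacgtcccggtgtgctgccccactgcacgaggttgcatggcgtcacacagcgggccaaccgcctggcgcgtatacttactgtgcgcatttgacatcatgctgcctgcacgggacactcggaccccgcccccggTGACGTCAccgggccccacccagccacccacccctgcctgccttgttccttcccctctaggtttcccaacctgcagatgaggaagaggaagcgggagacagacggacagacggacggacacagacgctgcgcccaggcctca
The *Samd11* promoter held TAATCC at 2 places, and 7.06% of the 32544 promoters of the same length held it at least once. TGACGTCA was found once in the *Csf2ra* promoter and in 1.8% of all promoters. With 23 CpG dinucleotides and 65.3% GC, the *Csf2ra* promoter was richer in both than the *Samd11* promoter, which had 10 and 56.7%, and than the median promoter, which had 7 and 53.0%. The core motif of CTCF, searched on both strands, was in neither promoter and in 3.45% of all promoters. Such matches describe letters only.

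*Rps4l* and the *Pisd* copies resemble other genes, so part of their reads could be misplaced, and aligned stretches of 90 bases are shown to let a reader judge how far they can be told apart. Capitals mark the positions that differ within each set. The first set is the start of the coding sequence of *Rps4x* (within chrX:102187994-102189300, minus strand, spliced) and the same place in *Rps4l* (chr6:148354710-148354799).
Rps4l: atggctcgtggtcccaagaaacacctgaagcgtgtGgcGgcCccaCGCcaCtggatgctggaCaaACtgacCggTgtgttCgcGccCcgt
Rps4x: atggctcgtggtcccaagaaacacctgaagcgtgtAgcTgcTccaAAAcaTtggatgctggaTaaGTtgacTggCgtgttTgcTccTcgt
They differ at 15 of the 90 positions. Over 778 aligned bases the identity with *Rps4x* was 81.1%, a mean that need not hold for each 100-base read. Other places are closer: stretches at least 90% identical to another place covered 99.9% of the exonic bases of *Rps4l*. *Rps4l* has kept an open reading frame of 262 residues that begins at the same ATG, beside the 263 residues coded by *Rps4x*. Of the 844 windows of 100 bases in its exon, 14 (1.7%) occur a second time in the genome, in *Rps4l-ps* on chromosome 7, which had at most 2 reads in any library.

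The second set is a stretch of *Pisd* coding sequence (chr5:32738445-32738534, minus strand) with its counterparts in *Pisd-ps1* (chr11:3129765-3129854) and *Pisd-ps2* (chr17:3077745-3077834).
Pisd-ps1: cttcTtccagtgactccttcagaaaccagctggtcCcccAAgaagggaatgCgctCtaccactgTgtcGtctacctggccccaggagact
Pisd-ps2: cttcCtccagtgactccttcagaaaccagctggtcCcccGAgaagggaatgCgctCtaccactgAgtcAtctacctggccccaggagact
Pisd: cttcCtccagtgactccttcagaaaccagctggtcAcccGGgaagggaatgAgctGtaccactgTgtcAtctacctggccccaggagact
The 3 sequences differ at 8 positions here, with 7 differences between *Pisd-ps1* and *Pisd*, 5 between *Pisd-ps2* and *Pisd* and 4 between the pseudogenes. Identity was 95.7% between *Pisd-ps1* and the *Pisd* coding sequence and 92.7% between both pseudogenes over 1258 aligned bases. Exact repeats elsewhere in the genome covered 17.1% of the 100-base windows of *Pisd-ps1* and 16.5% of those of *Pisd-ps2*, and reads from these cannot be told from reads of the other place. Stretches at least 98% identical to another place covered 43.3% of the exonic bases of *Pisd-ps1* and 26.6% of those of *Pisd-ps2*, and at 90% identity 94.9% and 90.3%, where a read is placed by few differences. For *Rps4l* the shares were 0.0% and 99.9%. Identity was taken over each whole match. Exact repeats inside a longer, less alike match, such as those of *Rps4l*, therefore do not count at 98%. Most of the repeated windows of *Pisd-ps1* (12.9% of all) match a further copy on an unplaced contig, whose gene model AC149090.1 had 0 reads in all 16 libraries. Whether reads could be placed on that contig is not given in the sources used here. The 0 therefore does not show that the copy is silent or that none of its reads were counted elsewhere. The longest open reading frames of *Pisd-ps1* and *Pisd-ps2* were 126 and 189 residues, against the 406 residues of *Pisd*. *Csf2ra* and *Samd11* had no repeated window, but 28.5% of the exonic bases of *Samd11* also lie in exons of *Noc2l* or *Gm47252* on the opposite strand. Whether reads were counted by strand is not given in the sources used here.

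Between 16386029 and 50459755 reads per library were counted on genes. Levels are given as CPM (counts scaled to a library of 1e6, after TMM scaling within each tissue and sex), and a gene is "called" where edgeR's quasi-likelihood test gave an adjusted p of at most 0.05 with a fold change under 0.7 or over 1.3. *Wiz* itself fell to 64.3%, 67.2% and 70.6% of the wildtype mean in heterozygous male brain, female brain and cerebellum, with no overlap between genotypes (log2 fold changes of -0.63, -0.57 and -0.50, adjusted p of 1.3e-05, 0.014 and 9.9e-08, edgeR). The cerebellar fold of 0.71 lies just outside the limit for a call. The neuronal markers fitted the labelled tissues: *Gabra6* was under 0.1 CPM in every brain, and the 6 markers of cerebellar neurons summed to 339 to 404 CPM in brain and 4367 to 4491 CPM in cerebellum. The 6 markers of embryonic brain summed to 2399 to 2654 CPM in brain and 87.1 to 116 CPM in cerebellum.

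In E13.5 brain all 5 genes were lower in every heterozygote than in every wildtype of the same sex. This contrast chose them, so the values are a description without a test. *Rps4l* had the deepest reduction. Its levels in the 3 wildtype male brains were 18.9, 20.1 and 18.1 CPM, and those in the 3 heterozygous ones were 7.18, 8.61 and 7.83 CPM. In females the wildtypes had 20.9 and 22.7 CPM and the heterozygotes 7.93 and 6.25 CPM. Heterozygous means were thus 41.4% of wildtype in males and 32.6% in females, with log2 fold changes of -1.26 ± 0.079 (SE) and -1.62 ± 0.129 (SE).

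*Csf2ra* came next. Male wildtype brains had 13.2, 16.4 and 13.5 CPM and heterozygous ones 7.70, 8.26 and 8.06 CPM, which is 55.8% of the wildtype mean. Female wildtypes had 16.4 and 17.0 CPM and heterozygotes 8.76 and 9.38 CPM, or 54.4%. The highest heterozygote was 37.2% below the lowest wildtype in males and 42.8% below it in females. In bulk tissue, fewer cells that express the gene and less RNA per cell cannot be told apart.

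*Pisd-ps1* was the most abundant of the 5. It stood at 69.0, 66.1 and 61.3 CPM in wildtype male brains against 35.8, 44.3 and 46.2 CPM in heterozygous ones, and at 73.0 and 82.4 CPM against 49.7 and 44.1 CPM in females. The gap between the genotypes was wide in both sexes, and the log2 fold changes were -0.64 ± 0.080 and -0.73 ± 0.083 (SE).

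*Samd11* was the least abundant. Wildtype males had 7.73, 6.91 and 6.57 CPM and heterozygous males 4.33, 5.14 and 5.05 CPM, while the females had 7.04 and 9.13 CPM against 5.07 and 4.72 CPM. Its log2 fold changes were -0.56 ± 0.103 and -0.72 ± 0.157 (SE), and the female value fell to -0.52 without the second wildtype.

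*Pisd-ps2* had the shallowest reduction. Its levels in male brains were 17.3, 18.9 and 14.6 CPM in wildtypes and 11.8, 13.4 and 13.0 CPM in heterozygotes, with the nearest pair of samples 8.17% apart. Females had 16.8 and 18.1 CPM against 13.5 and 11.2 CPM. The log2 fold changes were -0.39 ± 0.091 and -0.50 ± 0.113 (SE), folds of 0.76 and 0.71. In male brain *Samd11*, with a fold of 0.68, lay nearest to the fold limit of 0.7, and in female brain *Pisd-ps2* did.

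**Figure D1:**
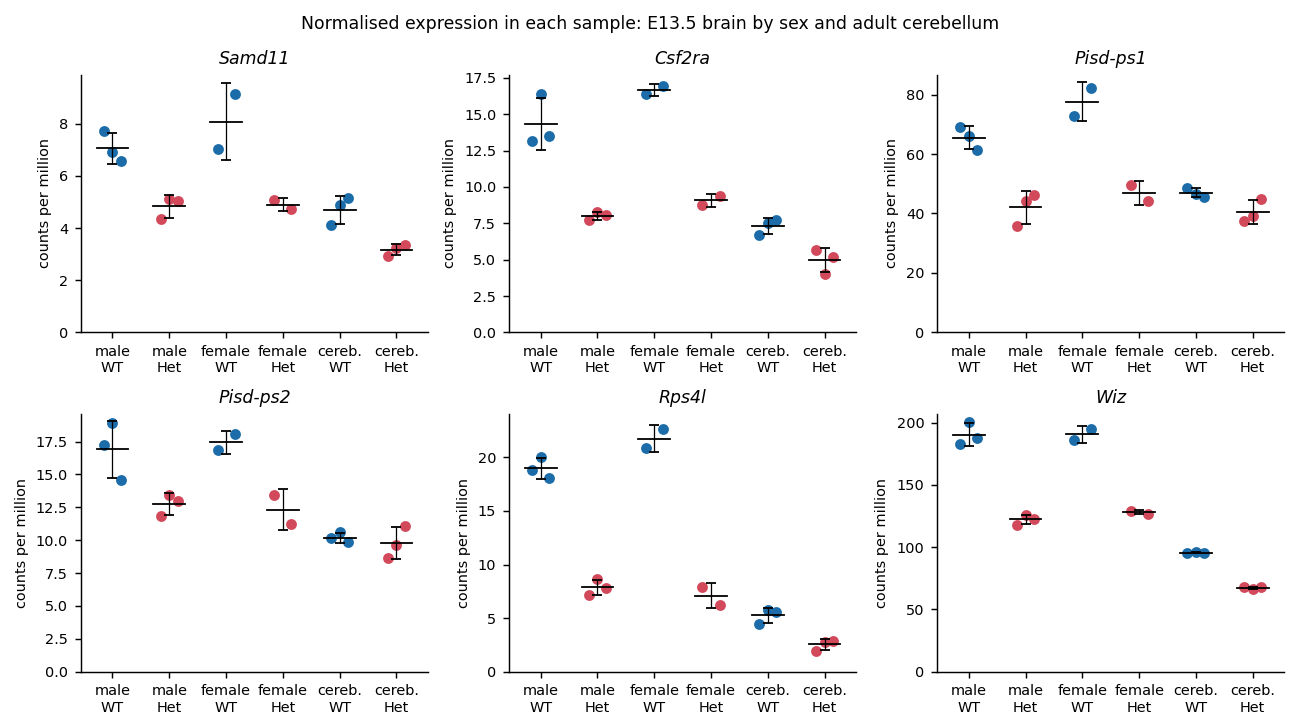
Normalised expression (CPM, vertical axes from 0) of the 5 genes and of *Wiz* in each sample, with wildtype in blue and heterozygous in red; lines are group means and bars the SD. In E13.5 brain no heterozygote reached the lowest wildtype of its sex for any of the genes, and *Pisd-ps2* alone overlapped in cerebellum.

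By the call limits in edgeR, *Rps4l*, *Csf2ra* and *Pisd-ps1* passed in brains of either sex, 3 of 5 in each. Over all genes, 0.184% of the 16848 tested in males and 0.111% of the 17152 tested in females were called. The study, which used DESeq, listed the same genes, and also *Samd11* in males and *Pisd-ps2* in females. With both sexes in a single fit, *Samd11* passed too and *Pisd-ps2* did not, against 0.352% of 17332 genes. Calls in the lower direction alone made up 0.166%, 0.111% and 0.254% of the genes, and an adjusted p of at most 0.05 with no fold limit was reached by 0.196%, 0.111% and 0.485%. Since the brain contrast chose the members, nothing is read from these shares. For all genes tested, 5.99% in males and 17.7% in females had every heterozygote below every wildtype.

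Adult cerebellum was not used to choose *Samd11*, *Pisd-ps1* and *Pisd-ps2*, so there they could be tested. *Samd11* fell: wildtype cerebella had 4.11, 4.88 and 5.15 CPM and heterozygous ones 2.93, 3.25 and 3.35 CPM, with no overlap. Its log2 fold change was -0.57 ± 0.122 (SE), a fold of 0.68, with an adjusted p of 0.0127 in edgeR's quasi-likelihood test over 15979 genes, of which 0.832% were called in either direction and 0.3% as lower. The size was close to that in male brain, and the difference between both contrasts was -0.01 ± 0.16 (SE). DESeq2's Wald test also called it, with an adjusted p of 0.0269. The call was lost without heterozygote 1 (adjusted p = 0.0718) or without wildtype 3 (adjusted p = 0.0872).

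*Pisd-ps1* was lower by a smaller amount in cerebellum. Wildtypes had 48.6, 46.5 and 45.7 CPM and heterozygotes 37.4, 39.1 and 44.9 CPM, so that the highest heterozygote lay only 1.63% below the lowest wildtype. The log2 fold change of -0.21 ± 0.055 (SE) had an adjusted p of 0.0345 (edgeR), as 5.25% of all genes reached by that p alone, but its fold of 0.86 did not pass the limit, and leaving out any of 5 of the 6 libraries raised the adjusted p above 0.05 (up to 0.189). Compared with male brain, the reduction was smaller by 0.43 ± 0.112 (SE) on the log2 scale.

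*Pisd-ps2* did not differ detectably in cerebellum. Its levels were 10.2, 10.6 and 9.83 CPM in wildtypes and 8.65, 9.63 and 11.1 CPM in heterozygotes, and the heterozygous range enclosed the wildtype one. The log2 fold change was -0.06 ± 0.088 (SE; edgeR adjusted p = 0.779), and it was 0.03 without heterozygote 1. The difference from male brain was 0.33 ± 0.134 (SE). No p is given for these differences between tissues, since the brain contrast chose the genes.

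*Csf2ra* and *Rps4l* had also been named for the cerebellar contrast, and their values there are a description. *Csf2ra* had 6.73, 7.49 and 7.75 CPM in wildtypes and 5.68, 4.03 and 5.17 CPM in heterozygotes, or 67.8% of the wildtype mean. For *Rps4l* the values were 4.47, 5.76 and 5.6 CPM against 1.98, 2.78 and 2.89 CPM, or 48.3%. Neither gene overlapped between genotypes, as was so for 12.4% of all genes tested in cerebellum with heterozygotes below wildtypes. On the log2 scale their reductions in cerebellum were smaller than in male brain by 0.25 ± 0.151 and 0.22 ± 0.172 (SE). In all, 4 of the 5 genes had every heterozygote below every wildtype in each of the 3 comparisons, as did 0.582% of the 15292 genes tested in all of them.

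Markers of other cells also differed between genotypes in cerebellum. There the 4 tested red cell genes, *Hba-a1*, *Hba-a2*, *Hbb-bs* and *Alas2*, were each called higher in heterozygotes by edgeR (1 of them by DESeq2), and the 8 listed red cell markers summed to 140 to 220 CPM in wildtypes and 258 to 462 CPM in heterozygotes, with the embryonic globins *Hba-x*, *Hbb-y* and *Hbb-bh1* under 0.1 CPM throughout. Heterozygote 2 also had a low sum of the 4 choroid plexus markers, 943 CPM, against 1724 to 2031 CPM in the other cerebella. The 6 embryonic brain markers summed to 103.6 to 115.8 CPM in wildtype and 87.1 to 100.3 CPM in heterozygous cerebella, without overlap, and *Nes* (-0.38), *Eomes* (-0.26) and *Sox2* (-0.23) had adjusted p of 0.0102, 0.0141 and 0.0395 (edgeR) short of the fold limit. So did *Zic1* of the cerebellar neuron markers (-0.11, adjusted p = 0.0331) and *Col1a1* of the 5 meningeal markers (-0.30, adjusted p = 0.0201). The part of these in the cerebellar values was not tested. *Samd11* fell by a similar amount, -0.58 on the log2 scale, without heterozygote 2 (adjusted p = 0.0259, edgeR). In brain none of the 8 red cell markers was called by either tool in either sex, with 1 in males and 3 in females at an unadjusted p under 0.05 (edgeR). DESeq2 gave no adjusted p to 1 of the 8 in each sex, so it could not call that gene. *Calb1*, a cerebellar neuron marker, was at 0.43 ± 0.0772 (SE) in male brain, where DESeq2 called it and edgeR did not (adjusted p = 0.0588).

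Microglia and macrophages are the usual site of the GM-CSF receptor in brain. None of their 11 markers was called by edgeR or DESeq2 in any comparison of genotypes (2 had an unadjusted p under 0.05 in edgeR in female brain and 0 elsewhere), and their summed level was 85.0 to 90.6 CPM in wildtype and 87.6 to 90.4 CPM in heterozygous male brains, where *Csf2ra* was lower. In female brain the sums were 103 to 107 CPM and 92.8 to 93.7 CPM, and in cerebellum 76.3 to 81.3 CPM and 75.6 to 82.3 CPM. DESeq2 gave no adjusted p to 3 of the 11 markers in cerebellum, so it could not call them there. *Csf1r*, the receptor that microglia need to survive, was at 19.7 to 23.3 CPM in wildtype and 20.5 to 21.5 CPM in heterozygous male brains. Female wildtypes had 25.8 to 26 CPM of it and female heterozygotes 23.6 to 24 CPM, without overlap, and the female marker sums did not overlap either. Across the 11 markers the median log2 fold change was -0.12 for females, 0.01 for males and 0.00 for cerebella. *Csf2ra* stood at -0.88 in females. How far the lower female marker levels enter that value was not tested. The 6 markers of monocytes, neutrophils and granulocytes, cells that also carry the receptor, summed to 5.01 to 6.34 CPM in wildtype and 6.83 to 7.82 CPM in heterozygous male brains, and to 5.87 to 5.94 CPM and 7.22 to 8.78 CPM in females. Of the 4 that could be tested in brain, *S100a8* and *S100a9* were at 1.57 ± 0.377 and 1.56 ± 0.392 (SE) over both sexes, *Lyz2* at 0.25 and *Csf3r* at 0.18, and *Csf3r* was at -0.09 in females. EdgeR called 0 of them, with 3 at an unadjusted p under 0.05 over both sexes, and DESeq2 called 2, *S100a8* and *S100a9*. Their part in the *Csf2ra* values was not tested, and *Elane* was under 0.1 CPM in every group.

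The rest of the GM-CSF and IL-3 pathway showed no called change. Of its 14 listed genes, 10 were tested in each comparison of genotypes and 0 were called higher or lower by edgeR or DESeq2, with 2, 0 and 0 at an unadjusted p under 0.05 (edgeR) in male brain, female brain and cerebellum. DESeq2 gave no adjusted p to 1, 1 and 5 of the 10 in these, so it could not call them. The ligands were hardly detected at this depth: *Csf2*, the gene for GM-CSF, had at most 1 read in any library and *Il3* had 0. *Csf2rb*, the signalling chain with which the alpha chain pairs, stood at 1.07 ± 0.343 CPM in wildtype and 0.928 ± 0.133 CPM in heterozygous male brain (SD, n = 3). The alpha chain for IL-3, *Il3ra*, had 2.16 ± 0.38 CPM against 1.38 ± 0.0741 CPM there (SD, n = 3). Its log2 fold change of -0.58 ± 0.166 (SE) missed the threshold, with an adjusted p of 0.309 (edgeR). In the fit of both sexes *Il3ra* was at -0.50 ± 0.118 (SE) with an adjusted p of 0.115 (edgeR).

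The partners of the other genes gave no call in brain. Of 14 tested Polycomb and SAM-domain genes 0 were called in any comparison of genotypes by edgeR or DESeq2 (0, 1 and 5 at an unadjusted p under 0.05 in male brain, female brain and cerebellum, edgeR), and *Samd7*, the photoreceptor relative of *Samd11*, had at most 4 reads in any library. *Ring1* was at -0.20 ± 0.0558 (SE) in cerebellum with an adjusted p of 0.0443 (edgeR), short of the fold limit. Of 13 small ribosomal subunit genes 0 were called by either tool (2, 0 and 4 at an unadjusted p under 0.05), with log2 medians of -0.03 for male brain, 0.04 for female brain and -0.04 for cerebellum, where the medians over all genes were 0.000, 0.000 and -0.003. The enzymes of phosphatidylserine and phosphatidylethanolamine synthesis gave 1 call in the 3 comparisons: *Etnppl*, which breaks down phosphoethanolamine, rose in heterozygous cerebellum by 0.50 ± 0.0719 on the log2 scale (SE; edgeR adjusted p = 0.000913). Both genes for the synthases that make phosphatidylserine, *Ptdss1* and *Ptdss2*, stayed within 0.09 of 0 on that scale.

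The parental gene *Rps4x* was at 582, 610 and 602 CPM in wildtype male brains and 582, 586 and 584 CPM in heterozygous ones, and its log2 fold changes were -0.03 ± 0.031, 0.06 ± 0.065 and -0.00 ± 0.029 (SE) in male brain, female brain and cerebellum. The share of *Rps4l* in the summed CPM of both genes thus went from 2.92 to 3.18% in wildtype male brains to 1.22 to 1.45% in heterozygous ones, and from 3.08 to 3.97% to 1.41 to 1.99% in cerebellum. *Pisd* was itself lower in every heterozygous brain than in the wildtypes of the same sex. It had 33.4, 31.7 and 30.7 CPM in wildtype and 26.8, 27.6 and 29.0 CPM in heterozygous males, and 35.8 and 38.4 CPM against 29.1 and 27.9 CPM in females, without overlap. The edgeR log2 fold changes of -0.21 ± 0.053 (SE; adjusted p = 0.249) and -0.38 ± 0.071 (SE; adjusted p = 0.369) missed the threshold within each sex. Over both sexes the value was -0.28 ± 0.045 (SE) with an adjusted p of 0.0125 (0.085 with a replicate block), not past the fold limit, and of 0.0594 without male wildtype 1. In cerebellum *Pisd* was at -0.08 ± 0.051 (SE; adjusted p = 0.426).

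The 3 *Pisd* genes kept the same order of heterozygotes in cerebellum, with heterozygote 1 lowest and heterozygote 3 highest for each of them. That order was not particular to the family: *Samd11*, *Rps4l* and *Rps4x* had it too, while *Csf2ra* did not. Both pseudogenes together made 71.2 to 72.8% of the summed CPM of the family in wildtype male brains and 64 to 67.7% in heterozygous ones. The ratio of *Pisd-ps1* to *Pisd-ps2* was 3.5 to 4.2 in wildtype and 3.04 to 3.56 in heterozygous male brains, so these ranges overlapped slightly, while in females they were 4.33 to 4.56 and 3.69 to 3.93.

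The neighbouring genes show whether tested genes beside the members were lower too. For *Samd11*, *Csf2ra*, *Pisd-ps1* and *Pisd-ps2*, every neighbour that does not overlap lies on the side away from the end. The ends themselves are thus not covered. The 5 nearest reach 362478 bases from *Csf2ra* and 1910149 bases from *Pisd-ps2*. Of the 25 genes that are the 5 nearest tested neighbours of each member, edgeR and DESeq2 called 0 in brains of males, of females and of both sexes together, and 0 of the 23 that could be tested in cerebellum. At an unadjusted p under 0.05 there were 2, 1, 0 and 3 of them (edgeR). The medians of their log2 fold changes were -0.018, -0.003, -0.007 and 0.002. With the 10 nearest of each, 50 genes, both tools again called 0, with 2, 1, 0 and 7 at an unadjusted p under 0.05, although 1 gene in cerebellum had an adjusted p of 0.0308 with a change too small for the fold limit. In the same order, DESeq2 gave no adjusted p to 1, 4, 0 and 3 of the 5 nearest of each. Among the 10 nearest it gave none to 3, 8, 0 and 7, and it could not call these genes.

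*Noc2l*, a nucleolar gene whose end overlaps that of *Samd11*, was at a log2 fold change of -0.05 ± 0.0364 in male and 0.02 ± 0.0678 in female brain, and of -0.07 ± 0.0384 in cerebellum (SE). The nearest tested gene to *Csf2ra*, *Gm7102* (47.6 kb away), was at 0.04 ± 0.173 in male and 0.12 ± 0.203 in female brain (SE). In cerebellum it was at 0.63 ± 0.253 (SE), with an adjusted p of 0.169 (edgeR). Farther from *Csf2ra*, *Zfp950* (83.1 kb away) and *Grk5*, a receptor kinase gene 128 kb away, were at 0.15 ± 0.0669 and 0.10 ± 0.0674 in male brain. *Sfi1*, a centrosome gene that lies 0.846 kb from *Pisd-ps1*, was at -0.01 ± 0.041 in male brain and -0.18 ± 0.0582 in female brain, against -0.64 and -0.73 for *Pisd-ps1*. *Scaf8*, 30.8 kb from *Pisd-ps2*, was at -0.03 ± 0.037, and *Tmtc1*, which surrounds *Rps4l*, at -0.06 ± 0.0774. The neighbour with the lowest value in male brain was *Tiam2*, 242 kb from *Pisd-ps2*, at -0.56 ± 0.216 with an adjusted p of 0.524 (edgeR) and at 0.14 ± 0.226 in females; *Pisd-ps2* itself, at -0.39, was inside the range of its neighbours there. In cerebellum *Pisd-ps1* (-0.21) was inside the range of its neighbours, from -0.63 for *Gm11400* to -0.00, and *Pisd-ps2* (-0.06) inside that of its own, from -0.07 to 0.03.

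**Figure D2:**
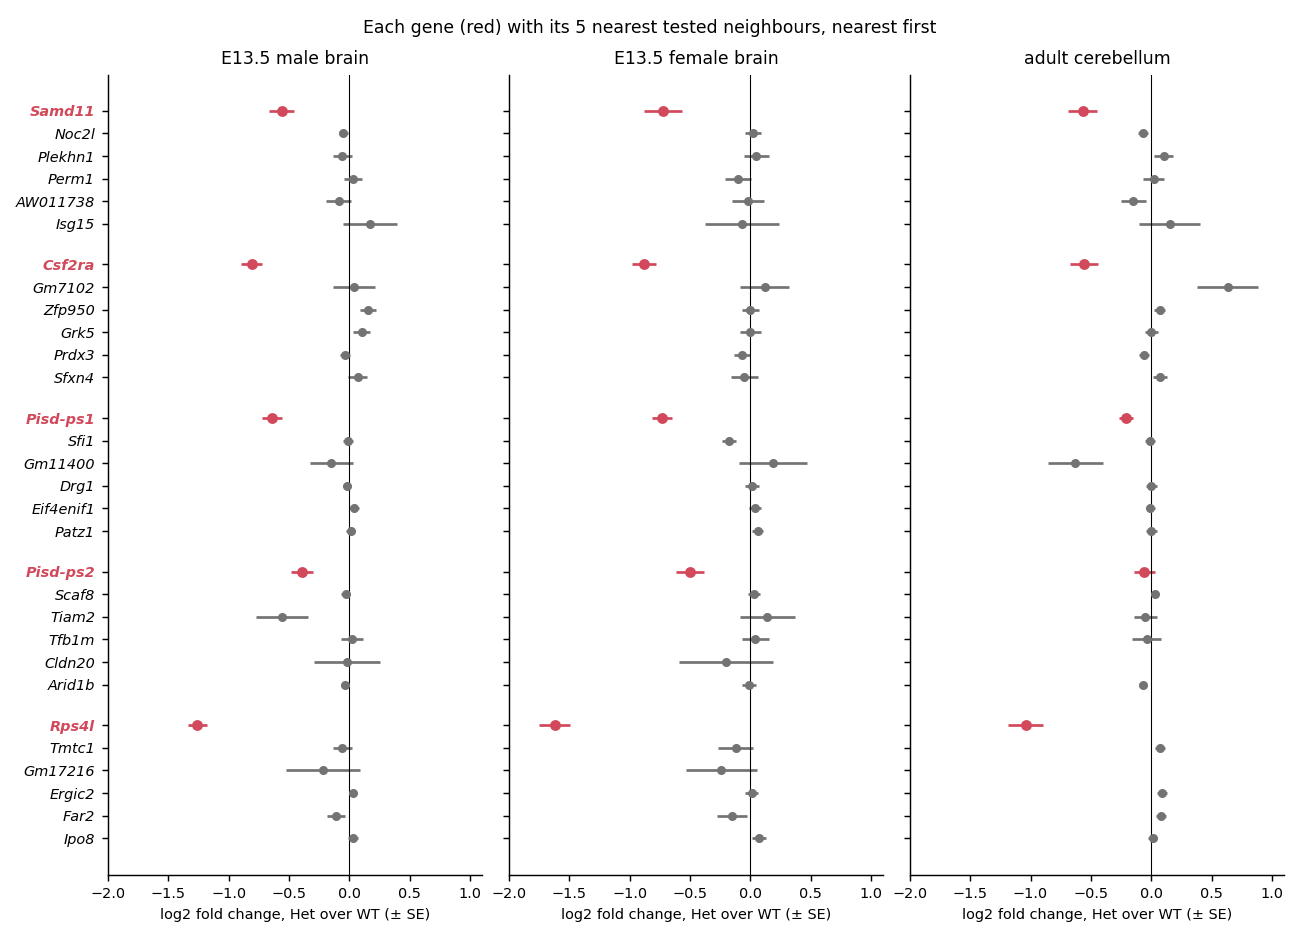
Log2 fold change (horizontal axes, heterozygous over wildtype, bars are SE) of each of the 5 genes (red) and of its 5 nearest tested neighbours (grey, nearest first) in the 3 comparisons. In brain the red points lie left of nearly all neighbours, whose values ran from -0.56 to 0.17 in males, and in cerebellum *Pisd-ps1* and *Pisd-ps2* lie within the range of theirs.

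Within 2 Mb of an assembled end of an autosome or of X, 4 of 781 tested genes were called in male brain (0.512%), 3 of 799 in female brain (0.375%) and 12 of 759 in cerebellum (1.58%). These shares were above those over all genes, which were 0.184%, 0.111% and 0.832%, and no test of that difference was made. The window of 2 Mb was picked because all 5 members lie inside it, and the members are among the calls. The brain shares with the members therefore cannot show an excess near ends. The brain calls were all lower. Without the 5 members 1 of 776 genes was left in male brain (0.129%) and 0 of 794 in female brain. By DESeq2 3 and 1 were left, and 54 and 47 had an unadjusted p under 0.05 in edgeR. The medians of these near-end genes on the log2 scale were 0.001, -0.000 and -0.013, near those over all genes. Of the 12 cerebellar calls 5 were lower and 7 higher, and 9 of the 754 genes that were not members were called (1.19%). DESeq2 called 7, 4 and 6 near-end genes in the 3 comparisons. At the outermost tested gene of each end, 40 genes of which 4 are members, edgeR called 2 in brains of males, 2 in those of females and 4 in cerebella, and among the other 36 the counts were 0, 0 and 2 (1, 0 and 1 by DESeq2, and 6, 5 and 16 at an unadjusted p under 0.05 in edgeR). That definition was added after the data had been seen.

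Apart from the members, 2 genes within 2 Mb of a proximal end were called in the single fit of brains of both sexes, both lower. They are named because of that call, out of 378 genes tested there with members included. With each sex fitted alone, *2810429I04Rik* was called in neither and *Gm10557* in males only (edgeR). In cerebellum 6 genes near proximal ends were called, 1 lower and 5 higher. *2810429I04Rik*, a long noncoding RNA gene that was the outermost tested gene of proximal chromosome 13, 0.478 Mb from the end, was at 4.08, 4.34 and 2.99 CPM in wildtype and 1.36, 2.25 and 2.25 CPM in heterozygous male brains, and at 3.63 and 4.64 CPM against 2.34 and 2.72 CPM in females. Over both sexes it fell by 0.84 on the log2 scale (SE 0.148, edgeR adjusted p = 0.0209), and in cerebellum by 0.66 (SE 0.184, adjusted p = 0.0456). Both calls were thin: the first was lost without any of 4 libraries (adjusted p up to 0.103) and the second without any of 5 of the 6 cerebella (up to 0.145). *Gm10557*, a processed pseudogene 1.2 Mb from the proximal end of chromosome 18, had 11.2, 10.45 and 9.999 CPM in wildtype male brains and 6.78, 6.38 and 6.31 CPM in heterozygous ones. Over both sexes it fell by 0.74 (SE 0.0577, edgeR adjusted p = 1.05e-05) and kept the call without each library in turn. In cerebellum its value was -0.39 ± 0.0865 (SE; adjusted p = 0.0145), not past the fold limit. The study's text places *Gm10557* in a poorly annotated cluster on another chromosome where mapping is difficult, so its position near this end is uncertain.

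The remaining near-end calls were in cerebellum alone. *Gcgr*, the glucagon receptor gene, fell by 0.95 (SE 0.19; edgeR adjusted p = 0.0084) from 1.77 to 0.910 CPM. *Xkr4*, *Net1*, *Igfbp6*, *Cabp2*, *Tnni3*, *Gucy1a2* and *Arhgap6* rose by 0.39 to 0.96 on the log2 scale, with adjusted p of 0.00699 to 0.0453. Each of these 8 genes lost its call when at least 1 cerebellum was left out. Where they could be tested in brain, in both sexes together, they were not called.

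**Figure D3:**
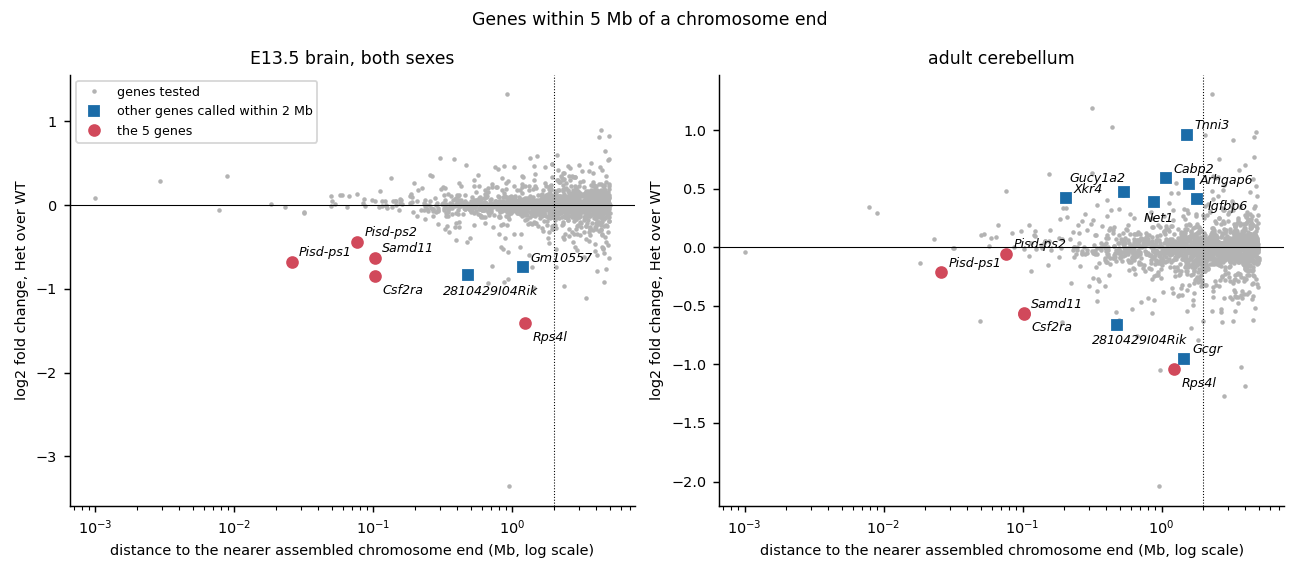
Log2 fold change (vertical axes, heterozygous over wildtype) of genes within 5 Mb of a chromosome end against their distance to it (Mb, log scale), in brain of both sexes and in cerebellum, with the 5 genes in red, other called genes within 2 Mb (dotted line) in blue and the rest in grey. Most grey points sit around 0 at every distance, and the genes called in brain within 2 Mb lie below it; 2 called farther out (*Ifitm2* and *Gm14418*, drawn in grey) lie above.

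Levels per kilobase of exon set the 5 genes in order. In wildtype male brain *Pisd-ps1* had 37.3 ± 2.21 CPM per kb, *Rps4l* 20.2 ± 1.04, *Pisd-ps2* 8.02 ± 1.03, *Csf2ra* 4.996 ± 0.618 and *Samd11* 1.97 ± 0.166 (SD, n = 3), and no neighbours in this order overlapped. Per length, *Pisd-ps1* was thus well above its parent *Pisd*, at 5.56 ± 0.243, whereas *Rps4l* was far below *Rps4x*, at 366.5 ± 8.84. In wildtype cerebellum the order was the same, but *Rps4l* (4.74 to 6.11 CPM per kb) and *Pisd-ps2* (4.67 to 5.03) overlapped. In heterozygous male brain *Rps4l* had dropped to 8.35 ± 0.758 CPM per kb, next to *Pisd-ps2* at 6.04 ± 0.392, and their ranges remained apart.

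**Figure D4:**
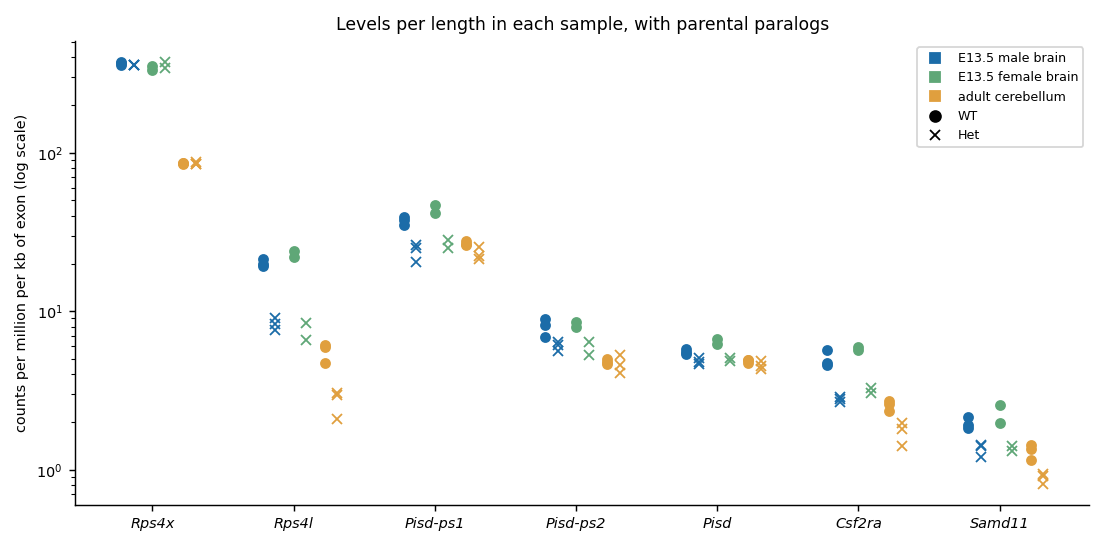
Level per length (CPM per kb of exon, log scale) of the 5 genes and the parental genes *Rps4x* and *Pisd* in each sample, coloured by tissue and sex, with circles for wildtype and crosses for heterozygous. *Rps4x* lies far above *Rps4l*, and *Pisd-ps1* above *Pisd*; circles and crosses separate for *Rps4l* in every tissue.

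All 5 genes were lower in adult cerebellum than in E13.5 male brain of wildtypes, a comparison in which tissue and age cannot be told apart. *Rps4l* fell most, by 1.63 on the log2 scale (SE 0.091, adjusted p = 1.46e-10), and *Csf2ra* by 0.73 (SE 0.093, adjusted p = 2.94e-06). These were the 2 of 5 genes called in edgeR's quasi-likelihood test, where 69.3% of 16840 genes were called, 32.9% as lower, and 86.5% had an adjusted p of at most 0.05. *Pisd-ps2* fell by 0.50 (SE 0.088, adjusted p = 8.25e-05), *Samd11* by 0.38 (SE 0.112, adjusted p = 0.00495) and *Pisd-ps1* by 0.27 (SE 0.051, adjusted p = 0.000167), changes short of the fold limit. *Rps4x* and the other 12 small ribosomal subunit genes on the list were all called lower in cerebellum too, with a median of -1.24, while *Pisd* was level at 0.01 ± 0.054 (SE; adjusted p = 0.825). *Wiz* was lower in cerebellum by 0.78 (SE 0.039, adjusted p = 3.87e-11).

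Genes whose pattern over the 16 samples was most like that of each member were listed by Pearson's r of log2 CPM after the mean of each tissue and sex had been subtracted, among 15292 genes, as a description. Genotype moves many of these genes, and the samples share libraries. The genotype difference was not subtracted, and the members were picked as lower in heterozygotes. A high r with *Wiz* and with other genes lower in heterozygotes thus follows in part from that choice. *Csf2ra* was most like *Wiz* itself (r = 0.963), followed by *Gm21092* and *2610005L07Rik* on chromosome 8. For *Samd11* the nearest was *Rps4l* (r = 0.958), then *Gm6483* on chromosome 8. *Rps4l* was most like a gene listed without a symbol (r = 0.975), *Gm10557* (r = 0.974) and *Gm6483* (r = 0.972). *Pisd-ps1* was most like *Pisd* (r = 0.957), then *Pcdhb10* (r = 0.932), a protocadherin gene, and *Pisd-ps2* (r = 0.929), and its r with *Rps4l* was 0.929 too. *Pisd-ps2* was most like *Pisd-ps1* (r = 0.929), *Pisd* (r = 0.919) and *Atp6ap1* (r = 0.917). *Wiz* ranked 1st for *Csf2ra*, 6th for *Samd11* and for *Rps4l*, 15th for *Pisd-ps1* and 112th for *Pisd-ps2*.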

How the data were processed

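RNA-seq of 16 samples was analysed; the 3 ChIP-seq samples were not analysed here. The authors made polyA libraries, sequenced 100 bases from 1 end, aligned the reads to mm10 using TopHat2 2.0.11 and counted them on Ensembl genes with HTSeq 0.6.1. The deposited values are raw counts. The counting mode, strand setting and annotation release are not given in the sources used here, and the submitters' processing notes also list BWA. Symbols and positions came from GENCODE M21 on GRCm38, the same build, where 40340 of 41388 identifiers were found; the other 1048 held at most 0.171% of the counts of any library.

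The samples of each comparison entered a separate edgeR 4.0.16 fit under R 4.3.3 (TMM, filterByExpr with a minimum count of 10, quasi-likelihood test, Benjamini-Hochberg adjustment over all genes tested); the fit of both sexes had sex as a covariate, and a genotype by tissue term was fitted on male brain and cerebellum. Calls used the fold limits of 0.7 and 1.3 and an adjusted p of 0.05. The study describes the samples of a group as biological replicates. DESeq2 1.42.0, other scaling and filters, a replicate block and leaving out each sample were the alternatives. Genes to which DESeq2 gave no adjusted p counted as not called. Counts were also simulated with 200 genes changed, by 0.8 or 1.5 on the log2 scale. Of those changed by 0.8, edgeR recovered 88% for male brain, 77% for female brain and 90% for cerebellum. Of all its calls there, 4.19%, 13.4% and 1.57% were false. These shares depend on how many genes were changed and need not hold for the data.

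The 5 members, the gene lists and the tests were chosen with earlier results of these data known. Other genes were named by rule: the 5 nearest tested neighbours, called genes within 2 Mb of an end (distances run to the first or last base that is not N), the 3 most alike genes by r (pseudocount of 0.5 CPM), the fixed lists and the parental genes. Repeated 100-base windows were found by exact matching to the genome, and longer copies with BLAST 2.17.0; alignments used Biopython 1.88. The members had 83 to 401 counts per library (*Samd11*), 119 to 778 (*Csf2ra*), 1059 to 3619 (*Pisd-ps1*), 245 to 867 (*Pisd-ps2*) and 56 to 995 (*Rps4l*).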

Additional observations from a re-analysis of the deposited data

How the results depend on the processing

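Of 210 values of the 5 genes under the alternatives (3 comparisons of genotypes and the comparison of tissues), 209 stayed below 0; the exception was *Pisd-ps2* in cerebellum, 0.03 without heterozygote 1. For *Samd11* in cerebellum the values without each library ran from -0.65 to -0.50, and the call was lost in 2 of the 6. Those of *Pisd-ps1* ran from -0.29 to -0.16 and those of *Pisd-ps2* from -0.15 to 0.03.

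Counts of called genes changed more. In male brain there were 31, but 175 without a filter on low counts and 20 to 117 without each library. In female brain there were 19, but 32 with DESeq2's Wald test and 0 to 261 without each library, where the group of 1 is assumed to vary like the other. In cerebellum there were 133, but 80 with DESeq2's Wald test, 211 without a filter, 839 by adjusted p alone and 70 to 153 without each library. Over both sexes there were 61, but 101 without a filter, 31 in either sex fitted alone and 42 to 76 without each library. Near-end calls were 4 in male brain, 2 within 1 Mb, 1 without the 5 members and 2 at the outermost genes; in female brain 3, and 0 without the members; in cerebellum 12, 6 within 1 Mb, 20 within 5 Mb and 4 at the outermost genes. Apart from the smaller windows and lists, the cause was not tested. The list of most alike genes shared 4 of 15 entries when no mean was subtracted.

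Same-numbered samples showed no sign of pairing. Their deviations from group means had mean correlations of -0.098 (male brain), -0.064 (female brain) and -0.047 (cerebellum). Those of other numbers were 0.049, 0.064 and 0.023. With so few samples a group these values depend on each other and cannot exclude pairing. The litters of the embryos are not given in the sources used here. With a replicate block the calls were 23 for male and 3 for female brain, 144 for cerebellum, 47 over both sexes and 11637 between tissues; the call of *Samd11* in cerebellum stood (adjusted p = 0.00863), and that of *2810429I04Rik* over both sexes did not (adjusted p = 0.0521). Scaling by DESeq2's size factors moved no median over all genes by 0.1. The smallest library, male wildtype 2, had 16386029 counts, and with 2 samples a group female brain allows the least.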
